A study of Rattus norvegicus with 6 samples.

Results

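Neutrophil nuclei were identified in the ileum of rats with severe acute pancreatitis (SAP) and of sham-operated controls (CON). A nucleus was counted as a neutrophil nucleus when it held at least 5 unique molecular identifiers (UMIs, 1 per captured RNA molecule) summed over S100a8 and S100a9, and passed the quality limits, a minimum of 1200 UMIs and of 500 genes with a UMI, and mitochondrial genes at no more than 5% of UMIs. This gave 87 neutrophil nuclei among 40970 nuclei that passed the limits, or 0.212%, out of 90461 barcodes in the count tables. S100a8 and S100a9 therefore chose the nuclei, and their levels below are a description without a test.

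The data came from single-nucleus RNA sequencing of ileal tissue, with 1 droplet library per rat and 3 rats per group. All rats were male Sprague-Dawley animals aged 6 weeks, with no transgene or gene deletion. SAP was induced with 3% sodium taurocholate infused backwards into the pancreatic duct at 0.1 mL per 100 g, and CON rats had the abdomen opened without infusion. Tissue was taken at 24 h in both groups, and the labels name no sort for leukocytes. Segments with visible lymphoid aggregates were avoided and the gut was rinsed, but nuclei in blood vessels and nuclei in the mucosa cannot be told apart.

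Neutrophils are short-lived granulocytes that are made in the bone marrow under the cytokine G-CSF, circulate in blood and enter inflamed tissue along chemokine gradients sensed by receptors such as CXCR2. They carry preformed granules of proteases and antimicrobial proteins, assemble an NADPH oxidase that makes superoxide, and secrete interleukin-1 and chemokines that draw further cells. S100A8 and S100A9 form calprotectin, a metal-binding protein that fills much of the neutrophil cytosol. Granule genes are transcribed in steps during maturation, with Mpo and Elane in early progenitors and Mmp8, Mmp9 and Retnlg late.

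The libraries were not alike, and this was measured before the nuclei were compared. Passing nuclei numbered 9246, 6260 and 8414 in CON 1, CON 2 and CON 3 and 3189, 5968 and 7893 in SAP 1, SAP 2 and SAP 3. Their summed UMIs ranged from 5549260 in SAP 1 to 28771508 in CON 1. The tables of CON 2 and SAP 1 listed barcodes down to 545 and 502 UMIs, whereas the other 4 tables started at 1000. Barcodes are written as running cell numbers in all 90461 cases, so barcodes shared between libraries could not be counted. RNA of S100a8 or S100a9 was also found outside the neutrophil nuclei, where 3.10%, 0.272% and 1.03% of the other nuclei of the CON libraries and 24.0%, 1.12% and 8.11% of those of the SAP libraries held a UMI of either gene. In SAP 1 the share was 23.9% of epithelial nuclei and 36.5% of smooth muscle nuclei, cell types that should lack these genes. Both shares were the highest of any library. Whether these UMIs were free RNA or transcripts of those nuclei was not tested. Few of these other nuclei came near the threshold, and 16 of 3160 in SAP 1 and 20 of 7851 in SAP 3 held 3 UMIs or more.

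Markers that did not choose the nuclei were used to check the label. At least 1 UMI of Csf3r, Cxcr2, Il1r2 or Mmp9 was present in 72 of the 87 nuclei (82.8%) against 1.05% of all other nuclei, and at least 2 of these 4 genes were present in 50 against 0.0245%. The median depth was 2161 UMIs in the neutrophil nuclei and 1760 in the others. Of the 12 neutrophil markers listed, 11 had a UMI in these nuclei and Cxcr1 had none. A rule that left S100a8 and S100a9 out (at least 3 UMIs over Csf3r, Cxcr2, Il1r2 and Mmp9 with at least 2 of them detected) found 43 nuclei, and 40 of them (93.0%) were among the 87, which is 46.0% of the 87.

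The share with another neutrophil marker followed the number of S100a8 and S100a9 UMIs. It was 61.1% of the 18 nuclei with 5 to 9 UMIs, 80% of the 25 with 10 to 49 and 93.2% of the 44 with 50 or more. Just outside the rule, 3 of the 43 nuclei with 3 or 4 UMIs (6.98%) held one. At the threshold itself, 3 of 6 nuclei with 5 UMIs and 2 of 12 nuclei with 4 UMIs did. The median number of S100a8 and S100a9 UMIs per neutrophil nucleus was 238 in CON 1, 9 in CON 3, 168 in SAP 1, 6.5 in SAP 2 and 22.5 in SAP 3. The nuclei of CON 3 and SAP 2 thus lay near the threshold, with at most 22 and 13 UMIs. The SAP 2 nuclei were also deep, at a median of 4532.5 UMIs against 1889 in its other nuclei. With every nucleus thinned to 1200 UMIs, CON 3 kept 2 neutrophil nuclei and SAP 2 kept 0. The rule without S100a8 and S100a9 found 1 in CON 3 and 0 in SAP 2, so the label of the SAP 2 nuclei is uncertain. The main counts below were repeated without each of these libraries, except where that left only CON 1 in its group.

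**Figure D1:**
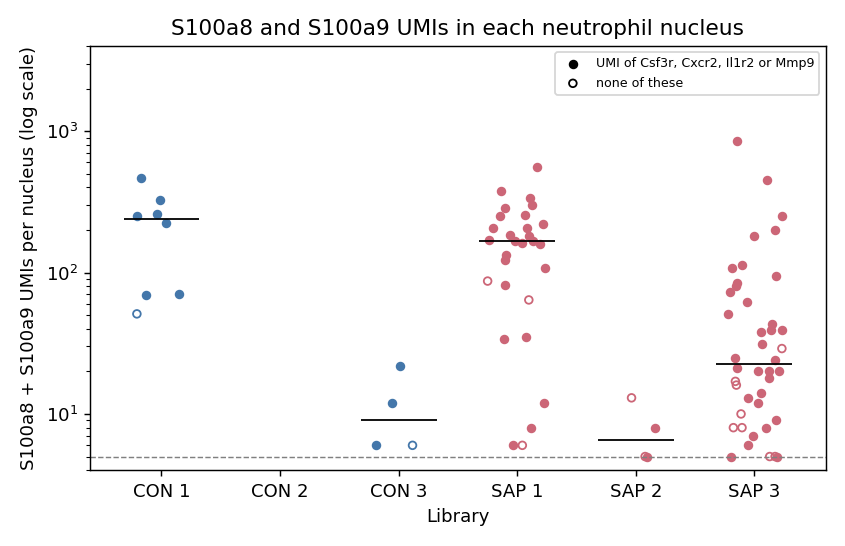
S100a8 plus S100a9 UMIs in each of the 87 neutrophil nuclei (log scale) by library, with filled points for nuclei that hold a UMI of Csf3r, Cxcr2, Il1r2 or Mmp9, open points for those that do not, bars at the library medians and a dashed line at the threshold of 5. CON 2 has no nucleus, the medians of CON 1 and SAP 1 are 238 and 168, and those of CON 3 and SAP 2 are 9 and 6.5.

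Markers of other cell types were also present. Epithelial markers were detected with 1639 UMIs in all over the 87 nuclei, led by Muc13 with 476, and made up a median of 0.527% of the UMIs of a neutrophil nucleus. The same markers made up 0.628% of the UMIs of smooth muscle nuclei, a cell type that should lack them, and 1.16% of those of epithelial nuclei. Macrophage markers reached 423 CPM (UMI counts scaled to the same total in each sum) in the neutrophil nuclei against 1641 CPM in macrophage nuclei, with C1qa the leading gene at 40 UMIs. Macrophage nuclei were chosen by genes of this list, and all other nuclei stood at 174 CPM. By library, neutrophil nuclei stood at 412 CPM against 154 in other nuclei in CON 1 and 249 against 183 in CON 3. The SAP values were 330 against 106, 910 against 129 and 412 against 274 CPM in SAP 1, SAP 2 and SAP 3. Monocyte markers reached 1747 CPM against 643 CPM in macrophage nuclei, led by Vcan with 191 UMIs, but this rested on SAP 3 at 2356 CPM, and without SAP 3 they stood at 817 CPM. In the other libraries the level was close to that of the remaining nuclei, at 530 against 518 CPM in CON 1, 748 against 671 in CON 3, 781 against 813 in SAP 1 and 1214 against 1061 in SAP 2. At least 10 UMIs of Vcan and Fn1 were found in 10 neutrophil nuclei, all of SAP 3, and 9 of these 10 also held a UMI of Csf3r, Cxcr2, Il1r2 or Mmp9. These 10 nuclei held 1966 to 37423 UMIs, and most were deeper than the median neutrophil nucleus (2161 UMIs). A UMI of any gene is more likely in a deeper nucleus, so this count does not settle their label. The eosinophil granule genes Epx, Prg2 and Prg3 and the keratins Krt5, Krt14, Krt13 and Krt4 of squamous epithelium, another known source of S100a8 and S100a9, had 0 UMIs, whereas Dsg3, a desmosomal cadherin of the same list, had 5 UMIs in 5 nuclei of SAP 3. The 2 largest nuclei, with 37423 and 17197 UMIs, were in SAP 3 and held 32.2% of the UMIs of its neutrophil nuclei.

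Neutrophil nuclei were counted to ask whether they were more frequent in the SAP ileum. CON 1 held 8 neutrophil nuclei (0.0865% of its passing nuclei, exact Clopper-Pearson 95% interval 0.0374 to 0.170%). CON 3 held 4 (0.0475%, interval 0.0130 to 0.122%) and CON 2 held 0 of 6260 (interval 0 to 0.0589%), where 3 counts would be a share of 0.0479%. SAP 1 held 29 (0.909%, interval 0.610 to 1.30%) and SAP 3 held 42 (0.532%, interval 0.384 to 0.719%). SAP 2 held 4 (0.0670%, interval 0.0183 to 0.172%). SAP 1 and SAP 3 stood above every CON library, whereas SAP 2 lay below CON 1. These intervals cover counting error only.

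The mean share was 0.0447% ± 0.0433 in CON and 0.503% ± 0.422 in SAP (SD, n = 3 rats each), a difference of 0.458 percentage points. The exact two-sided permutation test over the 6 rats gave p = 0.2, where the smallest p that 3 against 3 allows is 0.1. A test of this size could not pass 0.05 whatever the shares were, so it does not show that they were alike. SAP was higher than the CON library of the same number in 3 of 3 cases, with 4 nuclei against 0 for number 2. The labels do not state that same-numbered rats were paired. Leaving out SAP 1 lowered the difference to 0.255 percentage points (exact p = 0.4), whereas it was 0.460 without CON 3 (exact p = 0.4) and 0.676 without SAP 2 (exact p = 0.2). A lower share of other cells, a loss of nuclei during isolation and more neutrophils cannot be told apart in such shares.

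Other leukocytes were used as the denominator next. Among nuclei with a UMI of the pan-leukocyte gene Ptprc or in the class, neutrophil nuclei made up 0.441%, 0% and 0.190% in CON and 5.35%, 0.735% and 1.06% in SAP (exact permutation p = 0.1, the smallest possible). These shares did not overlap, but SAP 2 rested on 4 nuclei near the threshold. With at least 10 UMIs required, an alternative chosen after seeing the data that left 69 nuclei, the Ptprc-based shares were 0.441%, 0% and 0.0950% in CON and 4.81%, 0.184% and 0.808% in SAP. SAP 2, with 1 nucleus, then lay below CON 1 and the groups overlapped (exact permutation p = 0.2). Among neutrophil and macrophage nuclei together they made up 3.77%, 0% and 3.60% in CON and 74.4%, 13.8% and 16.9% in SAP (exact permutation p = 0.1, a denominator chosen after the data were seen). At 10 UMIs or more SAP 2 stood at 3.85% against 3.77% in CON 1, so the groups were separated by 1 nucleus of SAP 2. Without SAP 1 the mean difference fell from 2.17 to 0.687 percentage points of Ptprc nuclei and from 32.6 to 12.9 points of neutrophil and macrophage nuclei (exact permutation p = 0.2 for both, the smallest that 2 against 3 allows). Macrophage nuclei, defined by at least 4 UMIs over C1qa, C1qb, C1qc, Mrc1, Csf1r and Cd163, numbered 204, 52 and 107 in CON and 10, 25 and 206 in SAP. The high value of SAP 1 thus rested on 29 neutrophil nuclei and only 10 macrophage nuclei.

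**Figure D2:**
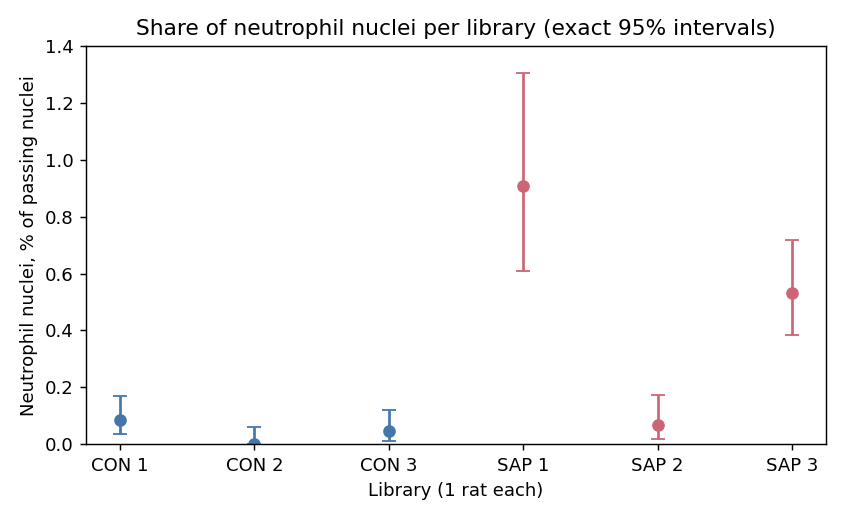
Neutrophil nuclei as a percentage of passing nuclei in each library, with exact 95% Clopper-Pearson intervals for counting error, CON in blue and SAP in red. SAP 1 (0.909%) and SAP 3 (0.532%) lie above the CON libraries, and SAP 2 (0.0670%) lies between CON 1 (0.0865%) and CON 3 (0.0475%).

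Levels of S100a8 and S100a9, given as a description, differed widely between the neutrophil nuclei of the libraries. S100a8 stood at 49267 CPM in CON 1, 2990 CPM in CON 3, 34608 CPM in SAP 1, 1012 CPM in SAP 2 and 8189 CPM in SAP 3. S100a9 stood at 51504, 2741, 38648, 556 and 10127 CPM in the same order. Of all S100a8 and S100a9 UMIs of passing nuclei, 85.1% in CON 1, 84.5% in SAP 1 and 80.8% in SAP 3 lay in the neutrophil nuclei, against 31.9% in CON 3 and 29.5% in SAP 2. Over all passing nuclei, both genes together reached 69.9, 1.75 and 7.30 CPM in CON and 1040, 6.78 and 198 CPM in SAP.

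Promoter sequences of neutrophil markers are shown because these genes were found together in the same nuclei. RefSeq (assembly GRCr8) had the 250 bases before the start of 9 of the 12 neutrophil markers, written here 5′ to 3′ on the gene's strand. Capitals mark matches to 2 motifs searched on both strands, GAGGAA, the core bound by the myeloid factor PU.1, and TTGCNNAA, a C/EBP site. S100a9 lies at chr2:178490623-178490872, minus strand, Csf3r at chr5:143582970-143583219, plus strand and Mmp8 at chr8:13008640-13008889, plus strand.
S100a9: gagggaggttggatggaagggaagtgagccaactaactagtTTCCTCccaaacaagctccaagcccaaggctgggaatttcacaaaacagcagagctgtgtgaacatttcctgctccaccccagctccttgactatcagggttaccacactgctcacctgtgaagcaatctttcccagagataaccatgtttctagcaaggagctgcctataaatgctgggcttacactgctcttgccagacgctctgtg
Csf3r: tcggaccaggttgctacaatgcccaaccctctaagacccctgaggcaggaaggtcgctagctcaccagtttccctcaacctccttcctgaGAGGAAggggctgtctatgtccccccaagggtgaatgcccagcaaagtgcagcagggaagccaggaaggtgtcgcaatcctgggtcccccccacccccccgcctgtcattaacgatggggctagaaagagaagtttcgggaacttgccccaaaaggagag
Mmp8: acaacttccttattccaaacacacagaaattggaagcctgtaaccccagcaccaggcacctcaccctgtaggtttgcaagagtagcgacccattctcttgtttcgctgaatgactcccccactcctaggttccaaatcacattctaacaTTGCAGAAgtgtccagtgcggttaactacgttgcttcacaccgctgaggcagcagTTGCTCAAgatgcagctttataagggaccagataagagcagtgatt
The GAGGAA core was present in 4 of the 9 marker promoters (Fpr1, S100a9, Clec4d and Csf3r) and in 23.3% of all 33469 promoters of this length. The C/EBP letters were present in 1 of the 9, that of Mmp8, which held 2 matches, and in 9.22% of all promoters. A match is a description of the sequence and not evidence of binding. S100a8, Il1r2 and Mmp9 were not matched in the table.

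Summed counts of the neutrophil nuclei were compared with those of all other nuclei of the same library to ask what else they transcribed. The comparison used 5 libraries, since CON 2 had no neutrophil nucleus. By the edgeR quasi-likelihood test with library as a block, 12617 genes were tested, and 957 (7.59%) were called, 515 (4.08%) higher and 442 (3.5%) lower in neutrophil nuclei, at an adjusted p under 0.05 and a log2 fold change of at least 1. The median log2 fold change of all tested genes was -0.46, and it was -0.29 when counts were scaled by library total and -0.12 with DESeq2, so small differences depended on the scaling. DESeq2 called 480 higher and 160 lower. Leaving out SAP 3 left 274 higher and 246 lower, leaving out SAP 1 left 334 and 74, leaving out CON 1 left 175 lower, leaving out CON 3 gave 498 and 313, and leaving out SAP 2 gave 570 and 160. With SAP 1 and SAP 3 alone, the libraries with at least 10 neutrophil nuclei, 569 were higher and 112 lower. The filter on low counts asks for 3.54 CPM in at least 5 summed profiles, a level that 1 UMI exceeds in each neutrophil sum, and 174 of the 515 higher genes passed it only with the neutrophil sums.

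A second fit therefore let the other nuclei alone admit genes, an alternative chosen after seeing the data. It took the 24533 genes with at least 10 UMIs in all other nuclei, whatever their count in the neutrophil nuclei, and called 1049 (4.28%), 696 (2.84%) higher and 353 (1.44%) lower. Of the 515 higher genes of the first fit, 460 were called in both, and of the 442 lower genes 352. The median over all its genes was -0.95, a value set in part by genes with no UMI in the neutrophil nuclei. Counts over gene lists and the adjusted p of higher genes below come from this second fit, and fold changes come from the first fit unless stated. A gene that was not called may still differ, since the neutrophil sums were small.

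Among the genes called in the first fit and detected in at least 10 neutrophil nuclei of at least 3 libraries, Prok2 had the largest fold change. Mmp8 and Retnlg, described below, did not pass the first filter and stood at 9.10 and 8.91 in the second fit. Prok2, a secreted ligand of prokineticin receptors, was higher by a log2 fold change of 8.99 ± 0.67 (SE) in the first fit and of 8.92 ± 0.66 in the second (edgeR adjusted p = 1.48e-38), with 91 UMIs in 39 neutrophil nuclei and a UMI in 0.0758% of the others. Pglyrp1, a peptidoglycan-binding granule protein, followed at 8.39 ± 0.62 and, in the second fit, 8.33 ± 0.61 (edgeR adjusted p = 2.88e-39). It was measured at 824 and 125 CPM in the neutrophil nuclei of CON 1 and CON 3 and at 2118, 152 and 336 CPM in those of SAP 1, SAP 2 and SAP 3, against 1.10 CPM in all other nuclei together. The remaining genes of this top 10 were Ceacam4 (7.95), Slpi (7.89), Il1r2 (7.71), Clec7a (7.51), Cxcl2 (7.50), Ltb4r (7.48), Chi3l1 (7.21) and Ccr1 (6.95), each as a log2 fold change. All 10 were also called in the second fit. Of these 10 genes, 7 were detected in the neutrophil nuclei of all 5 libraries, and Ceacam4 and Ccr1 were absent from those of SAP 2 and Cxcl2 from those of both CON libraries. RefSeq promoters were matched for 8 of these 10 genes. The GAGGAA core was present in 5 of the 8, against 23.3% of all promoters. The C/EBP letters were present in 1 of the 8, that of Cxcl2, against 9.22% of all promoters.

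Receptors were the first group described, because neutrophils are steered by them. Of 29 listed receptor genes, 27 were tested in the second fit and 20 (74.1%) were higher, none lower, with a median log2 fold change of 4.52. Il1r2, the decoy receptor that binds interleukin-1 without signalling, was measured at 235 and 748 CPM in CON 1 and CON 3 and at 961, 152 and 689 CPM in SAP 1, SAP 2 and SAP 3. Its level was 1.64 CPM in all other nuclei, a log2 difference of 7.71 ± 0.59, or 7.67 ± 0.58 in the second fit (edgeR adjusted p = 1.49e-36), and the values of the CON and SAP libraries overlapped. Higher levels were also found for Il17ra, the interleukin-17 receptor (log2 fold change 2.67), Il1r1, the signalling interleukin-1 receptor (3.60), Ccr1, a receptor of CCL3 (6.95), and Ptafr, the receptor of platelet-activating factor (2.35). Csf3r, the G-CSF receptor, and Cxcr2 had no UMI in the neutrophil nuclei of SAP 2 and did not pass the first filter.

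For such genes the values are those of the second fit. Csf3r stood at 647 and 748 CPM in CON 1 and CON 3 and at 225, 0 and 377 CPM in SAP 1, SAP 2 and SAP 3, a log2 difference from all other nuclei of 7.81 ± 0.58 (edgeR adjusted p = 2.68e-37). Cxcr2, the main chemokine receptor of mature neutrophils, stood at 177 and 125 CPM in CON and at 195, 0 and 130 CPM in SAP, a log2 difference of 8.30 ± 0.54 (edgeR adjusted p = 2.90e-49). Both CON values lay above all 3 SAP values for Csf3r and inside the SAP range for Cxcr2. In CON, Cxcr2 was detected in only 2 nuclei of CON 1 and 1 of CON 3. Trem1, an amplifier of innate signalling, and Clec4e, a C-type lectin that senses mycobacterial glycolipid, differed by 8.09 and 8.71 on the log2 scale. Cxcr1 and Fcgr3a were listed with 0 UMIs over the 281106 UMIs of the neutrophil nuclei.

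Granule genes of different maturation stages were examined next. Of the 10 listed progenitor markers, 6 had a UMI in the 87 nuclei, with 74 UMIs in all. Mpo, Ctsg, Ms4a3 and Ngp had 0 UMIs, Ltf and Prtn3 had 1 each, and Elane had 11 in 9 nuclei. Camp, the cathelicidin precursor of the secondary granules, had 52 UMIs in 26 nuclei of 3 libraries, and Fcnb, a ficolin, had 8 in 6 nuclei. These 2 were higher than in all other nuclei among the 6 progenitor markers tested in the second fit, Camp by 7.25 ± 0.64 on the log2 scale, so genes of earlier stages were not uniformly absent. Among the late granule genes there were 174 UMIs of Mmp8, the neutrophil collagenase, in 49 nuclei, and 207 UMIs of Retnlg, a resistin-like protein of rodent neutrophils, in 35. Mmp8 differed from all other nuclei by 9.10 ± 0.66 on the log2 scale, Retnlg by 8.91 ± 0.68 and Mmp9, gelatinase B, by 6.53 ± 0.63 in the second fit (edgeR adjusted p = 4.74e-39, 2.53e-35 and 1.30e-22). Mmp9 stood at 294 and 0 CPM in CON 1 and CON 3 and at 631, 0 and 312 CPM in SAP 1, SAP 2 and SAP 3. All 3 genes were absent from the nuclei of SAP 2, and Mmp9 and Retnlg also from those of CON 3.

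Of 25 granule genes listed, 22 were tested in the second fit and 15 were higher. Slpi, a secreted leukocyte protease inhibitor, was detected in 77 of the 87 nuclei (88.5%) against 2.18% of the others. It was measured at 2413 and 1495 CPM in CON 1 and CON 3 and at 8652, 1062 and 7287 CPM in SAP 1, SAP 2 and SAP 3, against 15.5 CPM in all other nuclei. Hp, haptoglobin, was higher by 6.42, Anxa1, a glucocorticoid-regulated phospholipid-binding protein, by 6.07, Lcn2, an iron-siderophore-binding protein, by 3.87 and Lyz2, lysozyme, by 1.62 on the log2 scale. The call of Lyz2 was lost when CON 3, SAP 1 or SAP 3 was left out. RatNP-3b, a defensin also made by Paneth cells, was not called, at -0.10 ± 0.55, and 494 of its 757 UMIs came from 1 nucleus of SAP 3.

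Genes of the NADPH oxidase came next. Of 8 listed genes, 6 were higher in both fits, among them Cybb and Cyba, which form the membrane core, the cytosolic Ncf1 and Ncf4, and the GTPase Rac2, and the median over the 8 was 3.29 in the second fit. The log2 fold changes were 3.44 for Cybb, 2.33 for Cyba, 3.25 for Ncf1, 5.07 for Ncf4 and 3.77 for Rac2. Rac1, which most cells use, and the proton channel Hvcn1 stood at 0.44 ± 0.48 and -0.75 ± 0.79 and were not called. The calls of Cyba and Ncf1 were lost without SAP 1.

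Secreted cytokines and chemokines were higher in 11 of 26 genes. Cxcl2, a CXCR2 ligand that attracts neutrophils, was detected in 37 neutrophil nuclei with 945 UMIs and differed by 7.49 ± 0.76 on the log2 scale in the second fit (edgeR adjusted p = 3.28e-20). Il1b, interleukin-1 beta, differed by 6.81 ± 0.63, Il1rn, the interleukin-1 receptor antagonist, by 5.30 ± 0.57 and the chemokine Ccl6 by 3.85 ± 0.56. Il1b stood at 58.9 and 249 CPM in CON 1 and CON 3 and at 766, 152 and 418 CPM in SAP 1, SAP 2 and SAP 3, so that SAP 2 lay between the CON libraries. It was detected in 1 nucleus of CON 1, 1 of CON 3 and 2 of SAP 2, so the order of these libraries is uncertain. Cxcl3, a second CXCR2 ligand, had 136 UMIs and differed by 6.36 ± 0.71 in the second fit. All 37 UMIs of Ccl24, which was called, were in SAP 3.

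Enzymes and activation genes followed. In the eicosanoid list 4 of 9 genes were higher, Alox5ap (5.47) and Alox5 (2.20), which act in leukotriene synthesis, Pla2g7 (4.39) and, in the second fit, Ptgs2, cyclooxygenase 2 (4.05). Lta4h, which makes leukotriene B4, stood at -0.14 ± 0.49, and its receptor gene Ltb4r at 7.48 ± 0.59. Of 28 genes of NF-kB and activation, 13 were higher, among them Sod2, mitochondrial superoxide dismutase (4.92), Slc2a3, a glucose transporter (3.63), Socs3, an inhibitor of cytokine signalling (3.35), and Nfkbia, the NF-kB inhibitor (1.99). Plaur, the urokinase receptor, and Cflar, an inhibitor of caspase-8, stood at 0.26 ± 0.49 and 0.03 ± 0.46. The call of Nfkbia was lost without SAP 1 and without SAP 3.

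Transcription factors followed. Of 19 factors tested, 6 were higher. They were Cebpb (3.38) and Cebpd (3.33), which drive granulocyte genes under stress, Spi1 (3.83), which encodes PU.1, Klf2 (4.07), Bcl6 (2.21) and Nfe2, which had 71 UMIs and differed by 8.45 ± 0.65 in the second fit. Cebpe, needed for late granule genes in the marrow, had 1 UMI. Stat3, Runx1 and Etv6 stood at 0.58, 1.09 and -0.54 with adjusted p of 0.442, 0.122 and 0.497 by edgeR. Junb at 1.29 was not called (adjusted p = 0.0724) but was called when counts were scaled by library total (1.67) or tested with DESeq2 (1.54).

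Adhesion and migration genes were higher in 17 of 26 tested. The integrin chains Itgam (4.38) and Itgb2 (3.52), which pair as Mac-1, the selectin ligand Selplg (3.80), the Src-family kinase Fgr (4.13) and the actin-bundling Lcp1 (3.64) were among them. Ptprc was higher by 1.53 ± 0.43 (edgeR adjusted p = 0.011). The call of Ptprc was lost without CON 1 or SAP 1. Lyn, a related kinase, was called in the first fit (1.33 ± 0.42) but not in the second (edgeR adjusted p = 0.0504). Dock2 at 0.65 ± 0.50 was not called.

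Genes of inflammasomes, neutrophil extracellular traps and survival gave 4 higher and 0 lower of 16 tested, with a median of 0.04 in the second fit. Nlrp12 (5.49) and Nlrp3 (4.25), inflammasome sensors, Padi4 (4.34), which citrullinates histones in extracellular trap formation, and Bcl2a1 (4.42), an anti-apoptotic protein, were higher. Naip6, a sensor of bacterial proteins, was lower in the first fit (-1.55 ± 0.52, edgeR adjusted p = 0.0446) but not called in the second (adjusted p = 0.0539), and Nlrc4, its partner, stood at -0.19 ± 0.50. Mcl1, on which neutrophil survival depends, stood at 1.00 ± 0.46 (adjusted p = 0.175) and was called under DESeq2 (1.29, adjusted p = 0.0440). Of 24 interferon-response genes tested, 6 were higher, Isg15 (3.60), Oas1a (5.39), Irf7 (1.99) and, with values of the second fit, Ifit1 (3.50), Ifit2 (4.19) and Ifit3 (6.04). None of 15 tested cell cycle genes was called, and Mki67 and Top2a stood at -0.55 ± 0.62 and -0.51 ± 0.57.

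The lower genes included those of the epithelium. All 15 epithelial markers in the tables were tested and 8 were lower, among them Cdh1, E-cadherin (-1.61 ± 0.45), Epcam (-1.55 ± 0.44) and Muc13 (-1.56 ± 0.48), and none was higher. Of the 442 lower genes, 66 had no UMI at all in the neutrophil nuclei, and their fitted fold changes depend on the fit's prior count. Markers of other classes that were called higher in the first fit were C1qa (2.01) and Csf1r (2.04) of macrophages, Fn1 (1.72) of monocytes, Siglec5 (2.40) of eosinophils, Des (1.53) of smooth muscle and Hba-a1, alpha globin (3.26), of erythrocytes. All but Des were also called in the second fit, which added Vcan (4.50), Ccr2 and Treml4 of monocytes, Dsg3 of squamous epithelium (4.16), Hba-a2 of erythrocytes (2.65) and Pf4 of platelets (2.61). Of these added genes, the UMIs of Ccr2, Dsg3, Hba-a2 and Pf4 were all in SAP 3, as were 185 of the 191 of Vcan. The 10 UMIs of Siglec5 were all in SAP 3 too. When nuclei over 10000 UMIs or with over 1% of UMIs from another class were left out, an alternative chosen after seeing the data, 513 genes were higher and 228 lower than in all other nuclei.

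**Figure D3:**
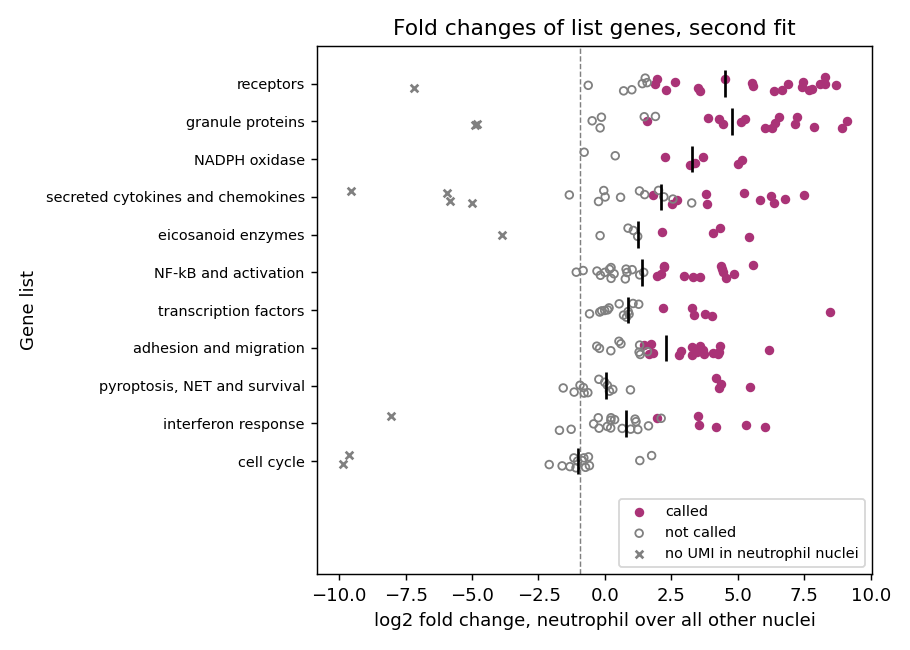
Log2 fold change of neutrophil over all other nuclei in the second fit for each tested gene of 11 lists, with filled points for called genes, open points for the rest, crosses for genes with no UMI in the neutrophil nuclei, whose place depends on the fit's prior count, bars at the list medians and a dashed line at the median of all genes (-0.95). The medians run from 4.77 for granule proteins to -1.03 for the cell cycle, where no gene was called.

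Macrophage nuclei were compared next, as the other phagocytes of the ileum. There were 604 of them, and by the edgeR test with library as a block 160 of 2522 genes (6.34%) were called, 134 (5.31%) higher and 26 (1.03%) lower in neutrophil nuclei. Of the 134 higher genes, 114 passed the filter only with the neutrophil sums. A second fit of the 15441 genes with at least 10 UMIs in macrophage nuclei, also chosen after seeing the data, called 217 (1.41%), 203 (1.31%) higher and 14 (0.0907%) lower, and 50 of the 134 higher and 3 of the 26 lower genes were called in both. S100a8, S100a9 and the macrophage genes that chose the nuclei were left untested. Leaving out SAP 3 left 692 genes tested, with 32 higher and 6 lower, leaving out SAP 2 gave 223 higher and 31 lower, leaving out CON 3 gave 151 and 19, and leaving out SAP 1 or CON 1 gave 12 and 16 lower. Scaling by library total gave 113 higher and 67 lower.

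Differences from macrophages were ranked among genes called in the first fit and detected in at least 10 neutrophil nuclei of at least 3 libraries. Cxcl2 did not pass its filter, and neither did Csf3r, Mmp9, Retnlg and Mmp8, with a median of 6.25 in the second fit. Within this limit, the largest differences were those of Pglyrp1 (8.26), Slpi (7.74), Il1r2 (7.41) and Chi3l1 (5.76) on the log2 scale. In this ranking they were followed by Lrg1, a secreted leucine-rich glycoprotein (5.59), Tspo, the mitochondrial translocator protein (5.44), and Alox5ap (5.06). Next came Tf, transferrin (4.79), Napsa, an aspartic protease (4.72), and Srgn, the granule proteoglycan serglycin (4.64). Pglyrp1 and Il1r2 had under 10 UMIs in macrophage nuclei and were not tested in the second fit, so their values here are a description. The other 8 were called in the second fit and kept their calls under each alternative in which they were tested, those that left out a library included. Tspo was detected in 72 neutrophil nuclei and stood at 7475 and 623 CPM in CON 1 and CON 3 and at 3935, 303 and 1455 CPM in SAP 1, SAP 2 and SAP 3, against 47.3 CPM in macrophage nuclei. All 5 libraries were above the macrophage level. Tf stood at 706 and 249 CPM in CON 1 and CON 3 and at 3725, 202 and 424 CPM in SAP 1, SAP 2 and SAP 3, against 17.2 CPM in macrophages.

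Genes that both phagocytes use were examined by list, with values of the second fit. In the oxidase list 3 of 8 genes were higher, Rac2 (2.59) and Ncf4 (2.34) among them. Cyba and Ncf1 were higher in the first fit (2.02 and 1.44) but not called in the second (edgeR adjusted p = 0.16 and 0.576). Of 27 activation genes, 7 were higher, including Sod2 (3.87), Socs3 (2.77), Slc2a3 (2.73) and Nfkbia (2.01). Of 18 factors, 3 were higher, namely Cebpb (2.66), Cebpd (2.50) and Klf2 (2.52), whereas Bcl6, Litaf and Junb were called only in the first fit. Secreted proteins were higher in 5 of 16 genes, with Cxcl2 at 6.41, Il1rn at 4.60 and Il1b at 4.24. Of 26 adhesion genes, 8 were higher, including Selplg (3.56) and Fgr (3.06), whereas Itgb2 at 1.98 (edgeR adjusted p = 0.0511) and Ptprc at 0.58 (edgeR adjusted p = 0.689) were not called. Lyz2, often used as a macrophage marker, was higher in the first fit by 1.91 (edgeR adjusted p = 7.25e-04) and was not called in the second (1.54, adjusted p = 0.0966).

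**Figure D4:**
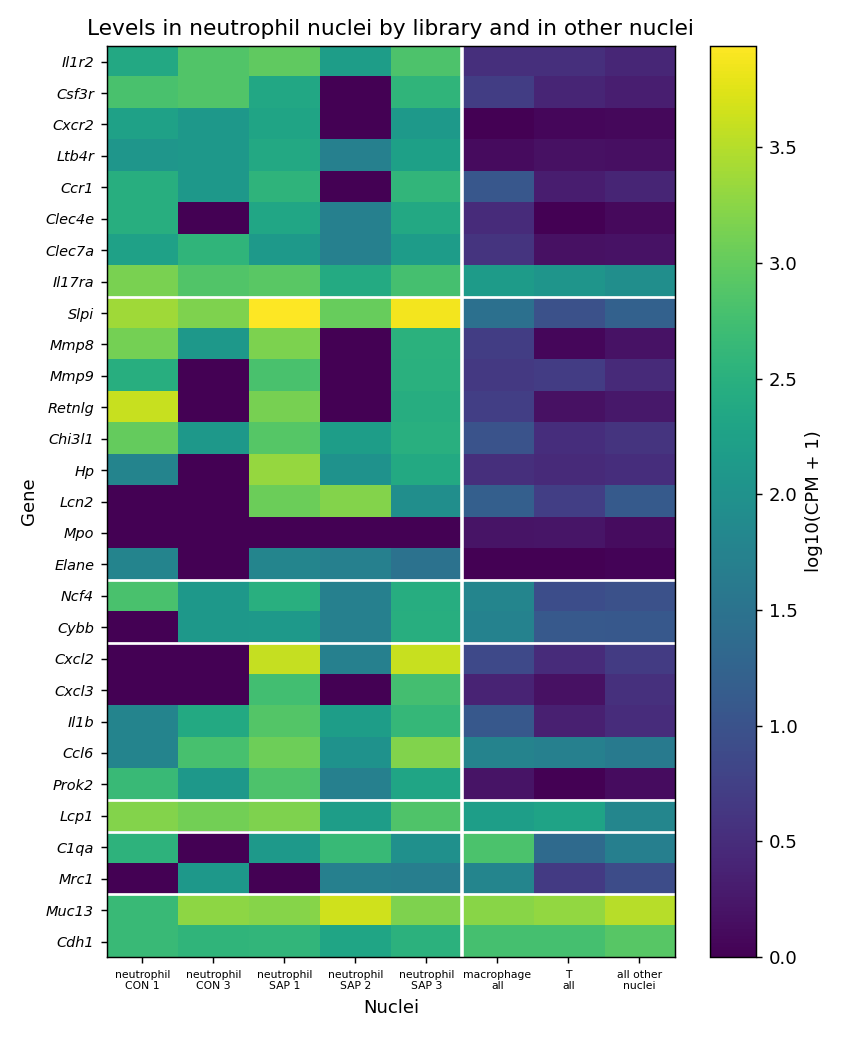
Levels, as log10 of CPM plus 1, of selected genes (rows) in the summed neutrophil nuclei of 5 libraries and in all macrophage, T and other nuclei (columns), with white lines between gene groups. Slpi and Il1r2 are above 0 in all 5 libraries, Mpo is at 0 in each of them, and Cxcl2 is at 0 in CON 1 and CON 3.

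Whether the neutrophil nuclei themselves differed between SAP and CON was then asked. The comparison rested on 12 CON nuclei with 25015 UMIs and 75 SAP nuclei with 256091 UMIs, summed into 2 CON and 3 SAP libraries. Of 224 genes that passed the filter, edgeR called 0 (0%) at an adjusted p under 0.05 and a log2 fold change of at least 0.5, and DESeq2 called 0, with 14 and 16 genes at an unadjusted p under 0.05. Without SAP 2 edgeR called 0 of 789 genes (41 at an unadjusted p under 0.05). Leaving out CON 3 would leave only CON 1 in its group, so no count is given for it. With the replicate number as a block, 6 genes (2.68%) were called and all were higher in SAP. CON 2 had no neutrophil nucleus, so SAP 2 was alone in its block and added nothing to the estimated difference. These 6 calls rested on pairs 1 and 3 with 1 residual degree of freedom, and the labels do not state such pairs. They were Cxcl2, Cxcl3, Hmox1, Lcn2, Nos2 and Thbs1, named after their values were seen.

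Cxcl2 had 0 UMIs in the 12 CON nuclei, 257 in 11 of the 29 SAP 1 nuclei, 1 in the 4 SAP 2 nuclei and 687 in 25 of the 42 SAP 3 nuclei. As levels these were 0 and 0 CPM in CON 1 and CON 3 and 3860, 50.6 and 4047 CPM in SAP 1, SAP 2 and SAP 3. SAP 1 and SAP 3 were high, whereas SAP 2 was near 0. Summed over the group, SAP nuclei stood at 3690 CPM, at least 30.8-fold higher than the 120 CPM that 3 counts over the CON nuclei would give. The largest count in 1 nucleus was 138, of the 945 in all. Adjusted p was 0.609 by edgeR, 0.355 by DESeq2 and 0.0109 with the replicate block.

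The other genes at 0 in the CON nuclei had fewer UMIs. Lcn2 had 75, 32 and 15 UMIs in SAP 1, SAP 2 and SAP 3, or 1127, 1618 and 88.4 CPM, and over the 3 libraries was at least 3.97-fold higher than the CON floor (edgeR adjusted p = 0.609, 0.0112 with the block). SAP 3 alone lay below that floor of 120 CPM, and the bound was 2.07-fold without SAP 1 and 10.3-fold without SAP 3. Hmox1, heme oxygenase 1, had 35, 0 and 264 UMIs, 135 of them in 1 nucleus, and was at least 9.74-fold higher (edgeR adjusted p = 0.763, 0.00193 with the block). That bound rested on SAP 3, without which it was 3.38-fold. Cxcl3 had 37, 0 and 99 UMIs, Ccl3 12, 0 and 46, and Osm, oncostatin M, 28, 0 and 26. In each of these but Lcn2, SAP 2 had none, as in CON.

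Nos2, inducible nitric oxide synthase, stood at 0 and 125 CPM in CON 1 and CON 3 and at 2013, 0 and 772 CPM in SAP 1, SAP 2 and SAP 3 (log2 fold change 4.30 ± 1.88, edgeR adjusted p = 0.763, 0.00193 with the block). Thbs1, thrombospondin 1, stood at 0 and 374 CPM in CON and at 946, 354 and 1461 CPM in SAP (2.75 ± 1.20, edgeR adjusted p = 0.763, 0.037 with the block). The groups overlapped for both genes through SAP 2. The CON 3 value of Nos2 came from 1 nucleus. Cebpb stood at 118 and 249 CPM in CON and at 1066, 354 and 795 CPM in SAP (2.13 ± 0.83, edgeR adjusted p = 0.711), where every SAP library was above both CON libraries but the test was not passed.

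By edgeR without the block, no marker or granule gene was called in this comparison. Lcn2 was called with the replicate block, with scaling by library total and without SAP 3, and no other marker or granule gene was called under any alternative run. Il1r2 had a log2 fold change of 0.43 ± 0.82 and Csf3r of -1.59 ± 1.10, both with adjusted p = 0.996 by edgeR, and Cxcr2 and Mmp9 did not pass the filter. Slpi had 1.47 ± 1.16, Mmp8 -0.50 ± 1.20 and Retnlg -2.09 ± 1.47. Retnlg was detected in all 8 nuclei of CON 1, at 4061 CPM, against 14 of 29 in SAP 1 (1352 CPM) and 13 of 42 in SAP 3 (283 CPM). It was at 0 in CON 3 and SAP 2, so the CON libraries spanned the whole range of the SAP libraries.

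**Figure D5:**
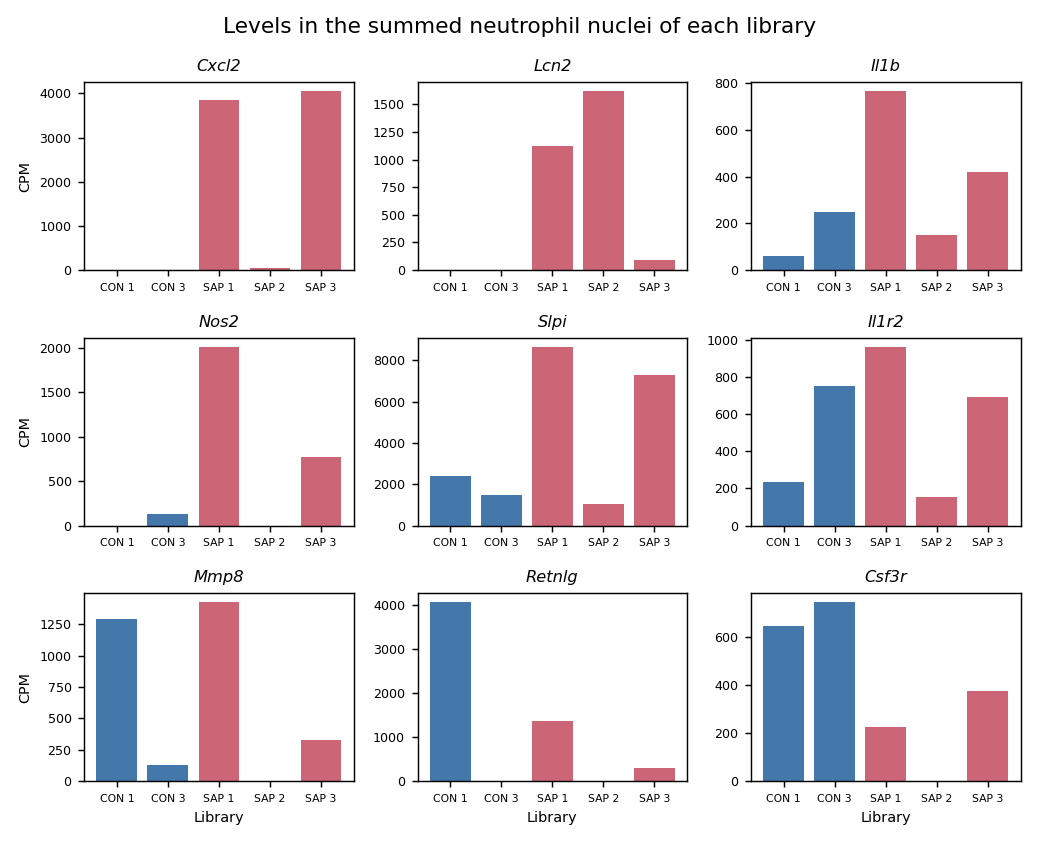
CPM of 9 genes in the summed neutrophil nuclei of CON 1 and CON 3 (blue) and SAP 1, SAP 2 and SAP 3 (red), as bars from 0 on separate scales. Cxcl2 is at 0 in both CON libraries and at 3860, 50.6 and 4047 CPM in the SAP libraries, Il1r2 and Mmp8 overlap between the groups, and both CON values of Csf3r lie above its SAP values.

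Nuclei with and without Cxcl2 were compared within SAP 1 and SAP 3. Of the 11 SAP 1 nuclei with a Cxcl2 UMI, 8 also held Retnlg or Mmp8 and 10 held Csf3r, Cxcr2, Il1r2 or Mmp9, and of the 18 without one, 14 and 16 did. In SAP 3, 16 of 25 nuclei with a Cxcl2 UMI held Retnlg or Mmp8 against 7 of 17 without, and 20 of 25 held Csf3r, Cxcr2, Il1r2 or Mmp9 against 14 of 17. A UMI of the monocyte markers Vcan or Fn1 was present in 4 of 11 nuclei with and 2 of 18 without a Cxcl2 UMI in SAP 1 and in 16 of 25 and 10 of 17 in SAP 3, and its part in these values was not tested. The median S100a8 and S100a9 UMIs of nuclei with and without a Cxcl2 UMI were 20 and 39 in SAP 3 and 107 and 188.5 in SAP 1. The nuclei of a library share their source, so these counts are a description.

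Genes that draw neutrophils into tissue were examined in all other nuclei, since other cells can also make these ligands and adhesion molecules. Of 24 listed genes in the tables, 17 were tested and edgeR called 0, as it called 0 (0%) of all 19163 genes, with 1588 at an unadjusted p under 0.05. A gene that was not called here may still differ. DESeq2 called 187 of 19122 genes (0.978%), 108 higher (0.565%) and 79 lower (0.413%), and Cxcl1 and Cxcl2 were the list genes among them. Cxcl2 outside the neutrophil nuclei stood at 0.104, 0.789 and 0.811 CPM in CON 1, CON 2 and CON 3 and at 17.1, 0.452 and 13.2 CPM in SAP 1, SAP 2 and SAP 3 (log2 fold change 4.31 ± 1.20, edgeR adjusted p = 0.552, DESeq2 adjusted p = 0.00632). Cxcl1, another CXCR2 ligand, stood at 0.278, 0.175 and 1.57 CPM in CON and at 10.9, 2.07 and 8.41 CPM in SAP (3.47 ± 0.87, edgeR adjusted p = 0.552, DESeq2 adjusted p = 0.00616). Every SAP library exceeded every CON library for Cxcl1, and SAP 2 lay inside the CON range for Cxcl2.

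The libraries with high Cxcl2 outside the neutrophil nuclei, SAP 1 and SAP 3, were also those with high S100a8 and S100a9 there (163 and 38.3 CPM), and the part of free RNA in these values was not tested. Lcn2 stood at 0.522, 0.263 and 9.07 CPM in CON and at 50.0, 18.9 and 22.8 CPM in SAP (3.50 ± 1.10, edgeR adjusted p = 0.552). The endothelial adhesion genes Icam1 (0.05 ± 0.55), Vcam1 (1.23 ± 1.12) and Selp, P-selectin (1.10 ± 0.62), were not called, and neither were Cxcl12, Tnf and Il1b. C3, complement component 3, stood at -2.10 ± 0.91 (edgeR adjusted p = 0.6).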

How the data were processed

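Raw UMI counts per gene and barcode were deposited by the authors as 1 matrix per library, made with dnbc4tools and, per the submitters' processing notes, Seurat 4.3.0 and the build mRatBN7.2. The study's quality limits were applied here. The gene lists and the rule for the nuclei were chosen with earlier results of these data known. Counts were summed per library and class and tested with edgeR 4.0.16 (filterByExpr, TMM normalisation, robust quasi-likelihood, Benjamini-Hochberg adjustment). DESeq2 1.42.0 was an alternative. Standard errors were taken as the log2 fold change over the root of the F statistic. Shares were compared by exact permutation over rats. Named genes were the 6 neutrophil markers, the 10 called genes with the largest fold changes detected in at least 10 neutrophil nuclei of at least 3 libraries, and up to 5 members per list with most UMIs. Other list genes, and those in the heat map, were named after their values were seen, and some list genes are not reported here. Same-numbered CON and SAP libraries were taken as pairs from the correlations of their deviations (0.723, 0.203 and 0.168 over 8561 genes). The labels state no pairs, and CON 3 and SAP 2, with different numbers, also gave 0.203. No doublet caller was run, and the authors' own annotation was not used here. Fits were tested on simulated data. Those of neutrophil against all other nuclei, and of SAP against CON in all other nuclei, missed most changes of the smaller size.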

Additional observations from a re-analysis of the deposited data

Results flagged for a closer look

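Barcodes that failed the quality limits were not part of the comparisons, yet some held many S100a8 and S100a9 UMIs. At least 5 UMIs of these genes were found in 49 of 23026 failing barcodes of SAP 1 (0.213%) and 5 of 2443 of SAP 3 (0.205%), against 1 of 2323 in CON 1 (0.0430%) and none in CON 2, CON 3 and SAP 2. Of these 55 barcodes, 54 had under 1200 UMIs. In SAP 1 their median was 838 UMIs, and 32 of the 49 (65.3%) held a UMI of Csf3r, Cxcr2, Il1r2 or Mmp9 against 0.840% of its other failing barcodes. The tables of SAP 1 and CON 2 list barcodes down to 502 and 545 UMIs, and CON 2 held 0 such barcodes among 17654 that failed. Those of the other 4 libraries start at 1000, so their counts are not comparable with that of SAP 1.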

How the results depend on the processing

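The difference in share stayed positive under each alternative, between 0.0251 and 0.795 percentage points of passing nuclei (0.255 to 0.676 without each library), with exact permutation p of 0.2 to 0.4. With at least 10 UMIs and leukocyte denominators, chosen after seeing the data, it was 1.76 points of Ptprc nuclei (exact permutation p = 0.2) and 28.0 of neutrophil and macrophage nuclei (exact permutation p = 0.1). The lowest value came from the planned doublet rule, which left 3 of the 87 nuclei, because nearly all held epithelial RNA. With the replicate numbers as pairs (replicate block), SAP was higher in 3 of 3 pairs, with a mean log2 ratio of 3.30 (exact p = 0.25, the smallest possible), and pair 2 rested on 0 CON nuclei plus a pseudocount. Against all other nuclei, genes called higher ranged from 274 to 570 when each of the 5 libraries in the fit was left out, against 515 with all of them. Genes called lower ranged from 74 to 313, against 442 with all of them, so each omission lowered their number. Lower calls were 160 with DESeq2, 176 with at least 10 S100a8 and S100a9 UMIs, 112 in libraries with at least 10 nuclei and 228 without nuclei over 10000 UMIs or over 1% of UMIs from another class, a rule chosen after seeing the data. DESeq2 made 75% of its calls higher, against 53.8%. Against macrophages, genes called higher ranged from 32 to 223 and lower from 6 to 31 without each library. Higher calls were 203 (14 lower) with at least 10 UMIs in the macrophage nuclei, 360 with at least 10 UMIs in the neutrophil nuclei, 310 with no filter, 268 with at least 10 S100a8 and S100a9 UMIs (55 lower) and 300 in libraries with at least 10 nuclei. Scaling by library total gave 67 lower and 62.8% of calls higher, against 83.8%. Within neutrophil nuclei, calls higher in SAP were 6 with the replicate block, 3 with scaling by library total (Cxcl2, Lcn2 and Hmox1) and 1 with no filter (Cxcl2). They were 0 to 1 without each SAP library (Lcn2 without SAP 3). In all other nuclei, DESeq2 called 108 higher and 79 lower, the replicate block 0, and leaving out each library 0 to 1 in either direction. The cause of these changes was not tested.

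Of 775 repeated values for 56 genes named against all other nuclei, 746 stayed on the same side of the threshold, 17 lost the call, 12 gained it and 0 reversed. Comparisons without doublet-like nuclei, and that of SAP with CON in libraries with at least 10 nuclei or in nuclei chosen without S100a8 and S100a9, could not be fitted. The CON neutrophil nuclei hold 25015 UMIs, where 3 counts equal 120 CPM, so lower levels were not detectable there.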

Other observations

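Genes outside the lists, named after their values were seen, were also higher in neutrophil than in all other nuclei by edgeR. Nos2 differed by 4.92 ± 0.67 on the log2 scale, with 266 UMIs in 50 nuclei, and Hmox1 by 4.75 ± 0.67. Tspo (5.80), Lrg1 (6.57), Tf (6.49), Napsa (4.82) and Srgn (4.95) were higher too. Cd74, the invariant chain of antigen presentation, was lower by edgeR against all other nuclei (-1.42 ± 0.45) and against macrophages (-1.07), but against macrophages it was not called in the second fit (adjusted p = 0.112 by edgeR).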
